A study of Mus musculus with 12 samples.

Results

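The atria and the ventricles of C57BL/6 mouse embryos were compared at E11.5, the middle of gestation, using the 3 libraries labelled as the atrial section and the 3 labelled as the ventricle section of the embryonic heart. These 6 libraries were chosen by their labels alone, out of the 12 libraries of the series, and no treatment or genetic change was listed for either group. The series also holds atrium-like and ventricle-like parts of heart organoids grown from mouse embryonic stem cells, which were not analysed here. The chambers were separated by surgical dissection of the whole organ, so each library held cardiomyocytes together with endocardium, epicardium, cushion tissue and blood. The atrial piece could also hold part of the inflow tract, and the ventricular piece part of the outflow tract. How many embryos went into each library was not given in the sources used here.

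At this stage the heart has looped and its chambers have begun to balloon out from the primary tube. Atrial muscle arises largely from the venous end, where retinoic acid, Tbx5 and the orphan nuclear receptors Nr2f1 and Nr2f2 act, whereas ventricular muscle carries the Iroquois factors, Hey2 and Hand1 and forms an outer compact layer and inner trabeculae. Chamber muscle shares most of its sarcomere but differs in myosin isoforms, in the small proteins that regulate the calcium pump, and in the ion channels that shape the action potential. The pacemaker lies in the sinus venosus at the atrial inlet, and the cushions that become valves lie in the atrioventricular canal and the outflow tract.

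The libraries held between 25943640 and 30540993 fragments assigned to genes. The labels matched the defining chamber markers: Myl2, the ventricular regulatory light chain, was listed at 120, 47.7 and 47.9 FPKM (fragments normalised to exon length and library depth) in atria 1, 2 and 3 and at 4954, 4954 and 5037 FPKM in ventricles 1, 2 and 3. The libraries atria 1 and ventricles 3 stood a little apart. Atria 1 carried the most Myl2 of the 3 atrial libraries, equal to 2.41% of the ventricular mean against 0.958% and 0.961% in the others. Irx4 there reached 5.15% of the ventricular mean against 0.808% and 0.58%. Hemoglobin genes took 5.525% of the fragments in ventricles 3, against 0.56% to 1.437% in the other 5 libraries. Xist, which is transcribed from the inactive X chromosome of female cells, had 1692 to 2651 fragments in replicates 1 and 2 of both chambers and 0 in replicate 3 of both. The 4 Y-linked genes together had 3964 and 3013 fragments in replicate 3 and at most 2 elsewhere. Both chambers thus held 2 libraries with Xist and 1 with Y-linked transcripts, and a fit with a term for them called 412 atrial and 272 ventricular genes.

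Of 14536 genes tested, 425 were higher in the atria and 287 were higher in the ventricles at an adjusted p below 0.05 and more than a 2-fold change. These were 2.92% and 1.97% of the genes tested, and these shares are the background for the calls in every gene group below. At an adjusted p below 0.05 with any fold change, 941 of the 14536 genes were higher in the atria and 1041 in the ventricles. These numbers are the background for counts given without the fold limit. For counts at an unadjusted p below 0.05 no share over all genes was worked out. The median log2 fold change of all tested genes was 0.014. The called genes spanned a wide range, with 72 atrial and 28 ventricular genes past 4 on the log2 scale, and their medians were 1.86 and -1.66. The p-values measure the spread between these libraries, which may be technical. In tissue of mixed cells a lower level cannot be told apart from fewer of the cells that make the transcript. All log2 fold changes are given as atria over ventricles with their standard error, from edgeR.

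**Figure D1:**
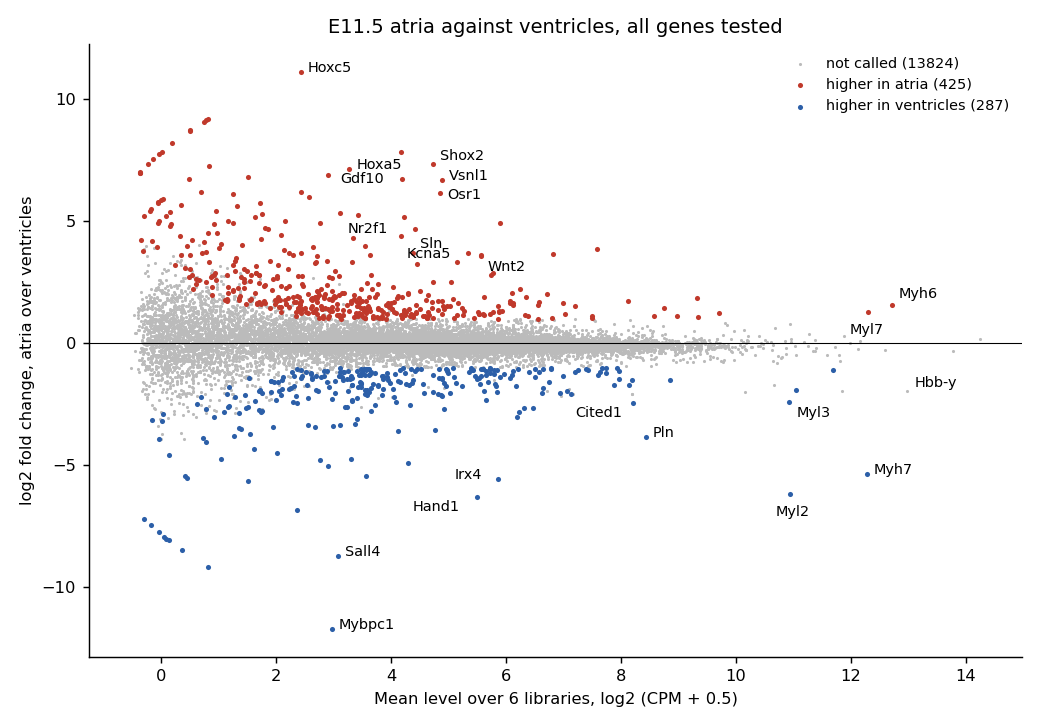
Each point is 1 of the 14536 genes tested, with its mean level over the 6 libraries as log2 (CPM + 0.5), where CPM is fragments scaled to library size, on the x axis and its log2 fold change, atria over ventricles, on the y axis. The 425 genes called higher in atria (red) and the 287 called higher in ventricles (blue) lie on both sides of a grey body centred near 0, and the highest-expressed called genes are myosin chains.

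The largest atrial excesses among clearly expressed genes included factors of the venous pole (Shox2, Osr1), Hox genes (Hoxc5, Hoxa5) and secreted factors and their kin (Gdf10, Fgf12). They also included genes best known from synapses (Slc17a7, Vsnl1, Shisa6, Lin7a) and the skeletal muscle factor Myog. Slc17a7, which loads glutamate into synaptic vesicles, was listed at 9.68, 10.2 and 11.9 FPKM in atria 1, 2 and 3 and at 0.0106, 0 and 0.127 FPKM in ventricles 1, 2 and 3. Vsnl1, a neuronal calcium sensor, was listed at 25.7, 25.3 and 27.7 FPKM in the atria and at 0.306, 0.096 and 0.332 FPKM in the ventricles. Both were thus nearly restricted to the atrial libraries and varied little among them, with log2 fold changes of 7.81 ± 0.52 and 6.68 ± 0.27 (edgeR adjusted p = 9.02e-06 and 4.74e-07). Lin7a, a synaptic scaffold, and Shisa6, an accessory subunit of glutamate receptors, were low but followed the same split, at 1.33 to 1.44 and 0.737 to 1.34 FPKM in the atria against at most 0.0227 and 0.0226 FPKM in the ventricles. Of 13 tested genes that mark neurons, glia and neural crest, 1 was higher in the atria (Nefm) and 3 were higher in the ventricles (Stmn2, Tubb3, Erbb3), and the calls of Nefm, Stmn2 and Tubb3 were each lost in at least 4 of the 6 fits that left out 1 library, at edgeR adjusted p up to 0.101, 0.081 and 0.13.

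The 12 largest ventricular excesses were Mybpc1, Sall4, Lyz1, Hand1, Myl2, Irx4, Gtsf1, Myh7, Wdr93, Penk, Irx2 and Ripk4. Gtsf1, a small zinc finger protein known from germ cells, was listed at 0.587, 0.863 and 0.427 FPKM in the atria and at 29.1, 21.2 and 27.9 FPKM in the ventricles (log2 fold change -5.44 ± 0.29, edgeR adjusted p = 1.95e-06). Its ventricular level was close to that of Irx4 and well above that of Sall4. Wdr93 was listed at 5.43, 5.08 and 4.62 FPKM in the ventricles against at most 0.396 FPKM in the atria, with the highest atrial value in atria 1. Ripk4, a kinase known from epidermis, was listed at 1.43 to 1.72 FPKM in the ventricles and at most 0.112 FPKM in the atria.

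Among transcription factors tied to the atria and the venous pole, 6 of 14 tested genes were higher in the atria, with a median log2 fold change of 0.87. Shox2, which maintains the pacemaker field of the sinus venosus, was listed at 12.7, 15.3 and 14.4 FPKM in atria 1, 2 and 3 and at 0.0669, 0.0855 and 0.0934 FPKM in ventricles 1, 2 and 3. Osr1, a factor of the posterior second heart field and the atrial septum, stood at 23, 25.7 and 25.9 FPKM in the atria and at 0.465, 0.401 and 0.135 FPKM in the ventricles. Both genes were near the detection limit in all 3 ventricular libraries, and their log2 fold changes were 7.34 ± 0.19 and 6.13 ± 0.26 (edgeR adjusted p = 4.25e-08 and 6.88e-07).

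The nuclear receptors that set atrial identity also separated the chambers. Nr2f1 was listed at 11.2, 13 and 11.9 FPKM in the atria and at 0.8, 0.695 and 0.163 FPKM in the ventricles, and Nr2f2 at 17.5, 16.6 and 16.7 FPKM against 2.18, 2.13 and 2.57 FPKM. Their log2 fold changes were 4.37 ± 0.37 and 2.81 ± 0.12 (edgeR adjusted p = 5.25e-05 and 5.07e-07). Nr2f2 kept a measurable ventricular level. Tbx5, required for the atria and the left ventricle, showed a smaller difference, at 39.9 to 48.9 FPKM in the atria and 12.3 to 14.1 FPKM in the ventricles (log2 fold change 1.66 ± 0.09, edgeR adjusted p = 2.85e-06). Foxf1, a factor of splanchnic mesenchyme, varied widely among the atrial libraries, at 5.13, 2.47 and 0.775 FPKM, against at most 0.219 FPKM in the ventricles. Tbx18 passed the adjusted p but not the fold limit, with a log2 fold change of 0.76 ± 0.10 (adjusted p = 0.000897 by edgeR).

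The ventricular factors gave the reverse picture, with 8 of 14 tested genes higher in the ventricles and a median log2 fold change of -2.36. Hand1, a bHLH factor of the left ventricle and outflow tract, was listed at 0.789, 0.172 and 0.6 FPKM in the atria and at 40.1, 42 and 36.2 FPKM in the ventricles (log2 fold change -6.30 ± 0.32, edgeR adjusted p = 1.56e-06). Irx4, the ventricular Iroquois factor, was listed at 1.89, 0.297 and 0.213 FPKM in the atria and at 32.4, 41.1 and 36.6 FPKM in the ventricles. The groups lay far apart, and atria 1 held most of what atrial Irx4 signal there was. Its log2 fold change was -5.56 ± 0.56 with all libraries and -7.24 without atria 1. Sall4, a zinc finger factor best known from pluripotent cells and limb and heart defects, had 0 FPKM in atria 1 and 3 and 0.0176 FPKM in atria 2, against 2.78, 2.3 and 2.83 FPKM in the ventricles. It was at least 153-fold higher in the ventricles when 3 fragments per library were taken as the floor.

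The other Iroquois members followed Irx4. Irx2 and Irx1 were listed at 5.16 to 6.72 and 1.45 to 2.71 FPKM in the ventricles against at most 0.493 and 0.179 FPKM in the atria. Irx3, which patterns the trabecular conduction system, was listed at 0.825 to 1.34 FPKM in the atria and at 7.52, 7.54 and 7.59 FPKM in the ventricles (log2 fold change -2.77 ± 0.22, edgeR adjusted p = 2.79e-05). Prdm16, a factor of compact myocardium, and Hey2, a Notch-linked repressor of atrial genes in the ventricle, differed by -3.29 ± 0.21 and -1.94 ± 0.12. A non-coding gene that overlaps Prdm16 on the same strand was more abundant than Prdm16 itself. Mycn, which drives growth of the compact layer, was higher in all 3 ventricular libraries but under the fold limit (log2 fold change -0.93 ± 0.08, edgeR adjusted p = 8.01e-05).

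The core cardiac factors divided the chambers far less. Of 12 tested genes, 1 was higher in the atria, Hey1, a partner of Hey2 that marks atrial muscle, at 41.7, 41.9 and 41.1 FPKM against 12.1, 12.8 and 10.9 FPKM (log2 fold change 1.73 ± 0.08, edgeR adjusted p = 1.39e-06). Gata4 was listed at 93.1 to 106 FPKM in the atria and 89.4 to 99.5 FPKM in the ventricles, and its log2 fold change was -0.01 ± 0.07. Nkx2-5 was listed at 78.3 to 88.2 and 82.7 to 93.4 FPKM, and its ranges overlapped. Over the 12 core factors 9 log2 fold changes were negative, with a median of -0.16. At an adjusted p below 0.05 with any fold change, 2 were higher in the atria and 2 in the ventricles. By the annotation deposited with the table, 34 of 594 tested DNA-binding transcription factor genes were higher in the atria and 17 in the ventricles (5.72% and 2.86%), a class picked after the values were seen. That annotation left out Irx1, Irx2, Irx3, Irx4, Sall4 and Prdm16, called higher in the ventricles above, and Shox2 and Osr1, called higher in the atria. The split between the chambers therefore depends on which factors were annotated.

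**Figure D2:**
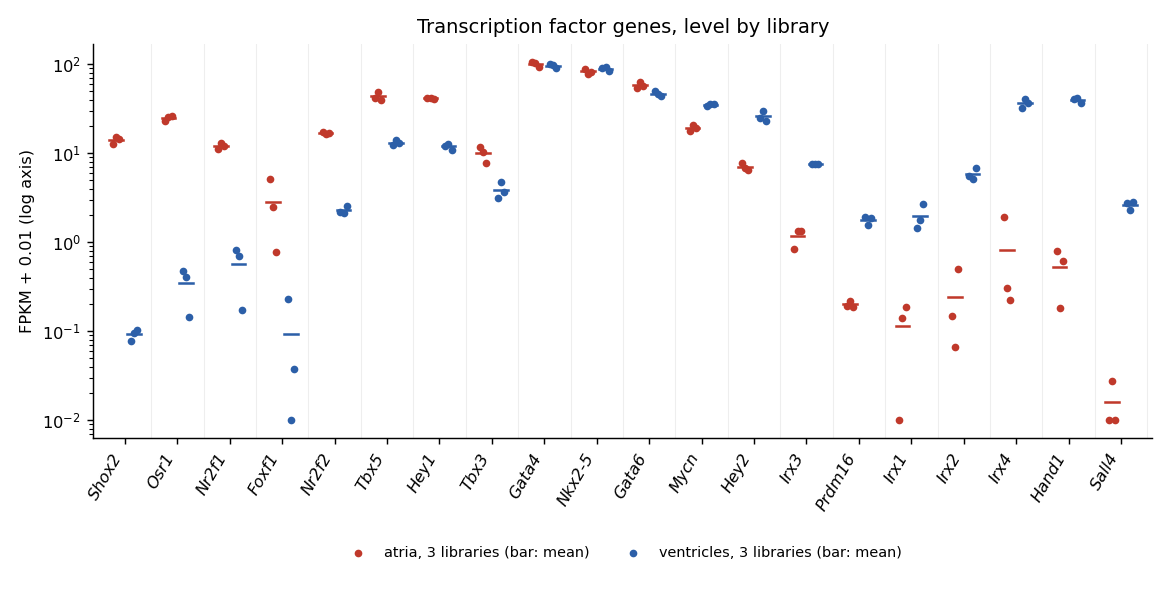
FPKM + 0.01 on a log axis for 20 transcription factor genes, with 1 point for each of 3 atrial (red) and 3 ventricular (blue) libraries and a bar at the group mean. Shox2 and Osr1 sit near the floor in the ventricles, Irx4, Hand1 and Sall4 sit low in the atria, and Gata4 and Nkx2-5 overlap or nearly overlap between chambers.

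Hox genes, which mark position along the body axis and reach the heart through the posterior second heart field, were detected mostly in the atrial libraries. Of 15 tested, 9 were higher in the atria, with a median log2 fold change of 3.03 (2.72 with genes at the floor set to their bound). Hoxa5 was listed at 3.76, 12.1 and 10.2 FPKM in atria 1, 2 and 3 and at most 0.116 FPKM in the ventricles (log2 fold change 7.13 ± 0.67, edgeR adjusted p = 9.41e-05). Hoxc5 was listed at 0.3, 5.16 and 4.13 FPKM and at 0 FPKM in all 3 ventricular libraries, at least 88.9-fold higher in the atria. In both cases atria 1 was the lowest of the 3 atrial libraries. The summed level of all 29 Hox genes was 16.3, 42.2 and 34.9 FPKM in the atria and 1.71 to 5.72 FPKM in the ventricles. Gdf10, a Bmp-family ligand, varied in the same order, at 1.52, 13.7 and 9.96 FPKM in the atria against at most 0.118 FPKM in the ventricles. How much of the inflow tract or of the tissue next to it each atrial piece held was not tested, and without atria 2 the number of Hox genes called dropped to 5. With a minimum count of 50, which tests fewer genes, it was 4.

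The thick filament separated the chambers by isoform, with 4 of 17 tested genes higher in the atria (Mybphl, Myl1, Myh6, Myl7) and 5 higher in the ventricles (Mybpc1, Myl2, Myh7, Myl3, Myh7b). Myh6, the fast alpha heavy chain, was listed at 1484, 1589 and 1328 FPKM in atria 1, 2 and 3 and at 445, 504 and 461 FPKM in ventricles 1, 2 and 3. Myh7, the slow beta heavy chain, was listed at 46.8, 32.1 and 20.5 FPKM and at 1185, 1455 and 1278 FPKM. The alpha chain therefore made up 96.9% to 98.5% of the summed Myh6 and Myh7 level in the atria and 25.7% to 27.3% in the ventricles. Their log2 fold changes were 1.57 ± 0.07 and -5.37 ± 0.28 (edgeR adjusted p = 1.3e-06 and 1.82e-06), so the chambers differed much more in the beta than in the alpha chain.

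The light chains behaved in the same way. Myl7, the atrial regulatory light chain, was listed at 9495 to 11545 FPKM in the atria and still at 3786 to 4540 FPKM in the ventricles (log2 fold change 1.28 ± 0.09, edgeR adjusted p = 1.01e-05). Myl2 differed by -6.18 ± 0.37 (edgeR adjusted p = 3.91e-06). Myl7 was thus 99.0% to 99.6% of the pair in the atria and 42.9% to 47.8% in the ventricles. Of the essential light chains, Myl3 was higher in the ventricles (511 to 752 against 2986 to 3155 FPKM, log2 fold change -2.42 ± 0.14). Myl1, known from fast skeletal muscle, was higher in the atria (690 to 874 against 195 to 223 FPKM, 1.86 ± 0.10). Myl4, the atrial form, differed by only 0.39 ± 0.07. Mybphl, a myosin-binding protein found in atria and conduction tissue, was listed at 82.9 to 96.2 FPKM in the atria and 20.5 to 26.7 FPKM in the ventricles. Mybpc1, the slow skeletal form of myosin-binding protein C, was listed at 0 FPKM in all 3 atrial libraries and at 3.93, 4.46 and 1.08 FPKM in the ventricles, at least 142-fold higher in the ventricles.

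Few thin filament and Z-disc genes passed the fold limit. Of 19 tested thin filament genes, 1 was higher in the atria, Tnnt3, the fast skeletal troponin T, at 12.9 to 14.3 FPKM against 1.17 to 1.37 FPKM (log2 fold change 3.34 ± 0.21, edgeR adjusted p = 5.88e-06). Another was higher in the ventricles, the filament nucleator Lmod3 (-1.05 ± 0.19). Tnnt2, the cardiac troponin T, was listed at 842 to 951 FPKM in the atria and 918 to 974 FPKM in the ventricles, and Tnnc1 at 2095 to 2590 and 2071 to 2150 FPKM. For both genes the ranges of the chambers overlapped. Tnni1, another of the highest members, was listed at 1190 to 1320 FPKM in the atria and 1610 to 1660 FPKM in the ventricles (-0.44 ± 0.06, edgeR adjusted p = 0.00122). At an adjusted p below 0.05 with any fold change, 3 thin filament genes were higher in the atria and 5 in the ventricles. Of 22 tested Z-disc and cytoskeletal genes, Cmya5 was higher in the atria, and Pdlim3 and Nrap were higher in the ventricles, at log2 fold changes of 1.64 ± 0.20, -1.5 ± 0.11 and -1.63 ± 0.15. Under the fold limit this list leaned to the ventricles, with 17 of 22 values negative, 10 of them at an adjusted p below 0.05, and a median of -0.29. The number higher in the ventricles was 4 without atria 1. Lmod3 lost its call without atria 3, at -0.86, and DESeq2's test called 3 thin filament genes higher in the atria.

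**Figure D3:**
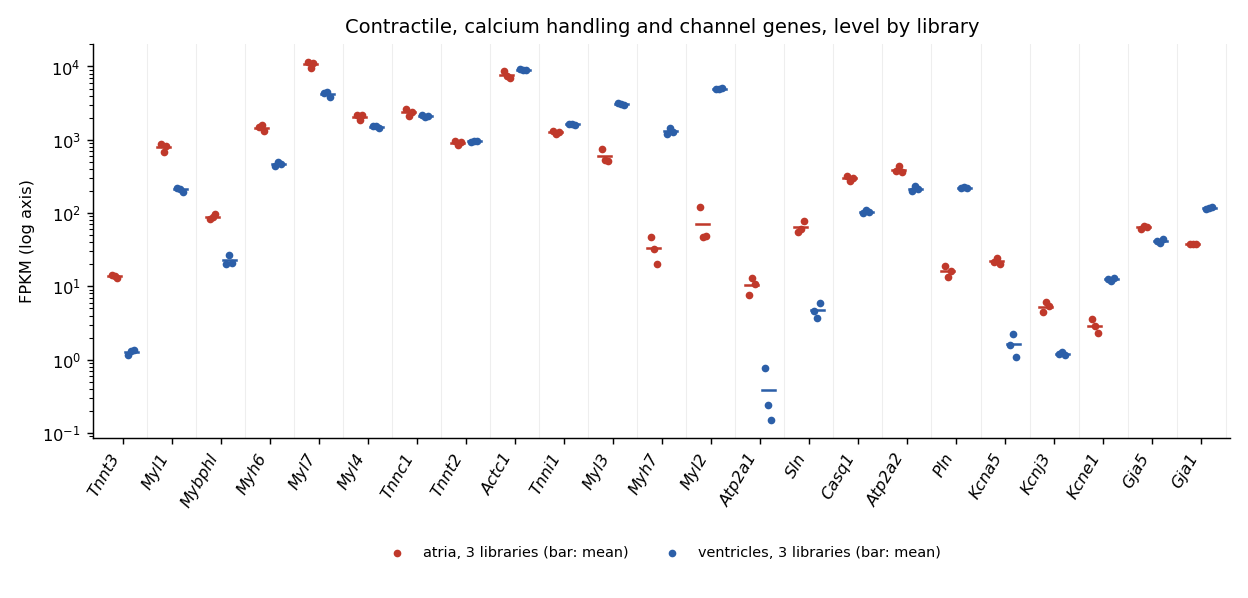
FPKM on a log axis for 23 contractile, calcium handling, channel and connexin genes, with 1 point for each of 3 atrial (red) and 3 ventricular (blue) libraries and a bar at the group mean. Myh7, Myl2 and Pln lie more than 10 times lower in the atria, Sln and Kcna5 more than 10 times lower in the ventricles, and Tnnc1 and Tnnt2 overlap between chambers.

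Calcium handling differed in the partners of the sarcoplasmic calcium pump. Sln (sarcolipin), the atrial inhibitor of the pump, was listed at 55.5, 61.1 and 77.2 FPKM in atria 1, 2 and 3 and at 4.68, 3.75 and 5.99 FPKM in ventricles 1, 2 and 3. Pln (phospholamban), the ventricular inhibitor, was listed at 19.1, 13.4 and 16 FPKM in the atria and at 218, 226 and 218 FPKM in the ventricles. The pair was nearly exchanged between chambers, with log2 fold changes of 3.68 ± 0.22 and -3.84 ± 0.13 (edgeR adjusted p = 3.85e-06 and 1.56e-07). Sln made up 74.4% to 82.9% of the pair in the atria and 1.64% to 2.68% in the ventricles. The pump itself, Atp2a2, was higher in all 3 atrial libraries but under the fold limit (361 to 436 against 198 to 233 FPKM, 0.79 ± 0.08). Atp2a1, the fast skeletal pump, was called higher in the atria at 7.65 to 13 against 0.149 to 0.772 FPKM, although it overlaps another gene on the opposite strand. Casq1, the skeletal calsequestrin, was listed at 274 to 323 FPKM in the atria and 100 to 110 FPKM in the ventricles (1.44 ± 0.08). Cacng6, an auxiliary calcium channel subunit, was higher in the ventricles (-3.34 ± 0.47). In all, 3 of 23 tested calcium cycling genes were higher in the atria and 2 in the ventricles.

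Ion channel calls lay mostly on the atrial side. Among potassium channel genes 6 of 28 tested were higher in the atria and 1 in the ventricles, with a median log2 fold change of 0.34. That median was 0.53 without atria 1, and the number higher in the ventricles was 2 without atria 1 or atria 2 and 3 by DESeq2's test or limma-trend. Among sodium, calcium and pacemaker channel genes 5 of 22 were higher in the atria. Kcna5, which carries the atrial ultrarapid repolarising current, was listed at 21.3, 24.7 and 20 FPKM in the atria and at 1.57, 2.24 and 1.08 FPKM in the ventricles (log2 fold change 3.69 ± 0.21, edgeR adjusted p = 3.12e-06). Kcnj3 and Kcnj5, the subunits of the acetylcholine-gated channel, differed by 2.06 ± 0.15 and 1.13 ± 0.12 (edgeR adjusted p = 1.95e-05 and 0.000195), and the second was already at 8.11 to 11.3 FPKM in the ventricles. Abcc8 and Kcnj8, of the ATP-sensitive channels, were also higher in the atria (1.83 ± 0.29 and 1.87 ± 0.35). Kcne1, the beta subunit of the slow delayed rectifier, ran the other way, at 2.33 to 3.58 FPKM in the atria and 11.9 to 13.1 FPKM in the ventricles (-2.17 ± 0.16, edgeR adjusted p = 2.31e-05).

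Of 12 tested atrioventricular canal and conduction genes, 4 were higher in the atria and 8 were not called, 4 of the 12 with a negative log2 fold change. Hcn4, the main pacemaker channel, was listed at 10.4, 13.7 and 10.8 FPKM in the atria and at 4.27, 3.64 and 3.76 FPKM in the ventricles (log2 fold change 1.51 ± 0.12, edgeR adjusted p = 2.52e-05). Tbx3, which represses chamber genes in nodal cells, was listed at 11.7, 10.4 and 7.71 FPKM against 3.15, 4.72 and 3.66 FPKM (1.30 ± 0.19, edgeR adjusted p = 0.00118). Gjd3, a low-conductance connexin, differed by 1.91 ± 0.23. Bmp2 and Rspo3, of the atrioventricular canal, were highest in atria 1 among the atrial libraries, at 29.2, 14.4 and 9.88 FPKM and at 13, 4.93 and 2.83 FPKM, and neither was called. Without atria 1, Rspo3 was called higher in the ventricles (log2 fold change -1.76, adjusted p = 0.0027 by edgeR). Fgf12, which regulates sodium channels, was listed at 1.54 to 1.83 FPKM in the atria and at most 0.0842 FPKM in the ventricles. The connexin of working muscle, Gja1, was listed at 37.7, 38 and 37.5 FPKM in the atria and 114, 116 and 121 FPKM in the ventricles (-1.71 ± 0.07, edgeR adjusted p = 3.81e-07). Gja5, of atrial and conduction cells, differed by 0.54 ± 0.08, under the fold limit.

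Genes of trabeculae, Notch and neuregulin signalling leaned to the ventricles, with 7 of 27 tested higher there and 1 (Jag1) higher in the atria. Cited1, a transcriptional cofactor of early ventricular muscle, was listed at 56.2, 43.9 and 62.1 FPKM in the atria and at 276, 266 and 288 FPKM in the ventricles (log2 fold change -2.43 ± 0.12, edgeR adjusted p = 1.82e-06). Nppb, the B-type natriuretic peptide, was listed at 206, 101 and 67.6 FPKM in the atria and at 478, 351 and 349 FPKM in the ventricles (-1.71 ± 0.33, edgeR adjusted p = 0.00663). Nppa, the A-type peptide, was listed at 1925 to 2810 and 2597 to 3058 FPKM, with overlapping ranges (-0.32 ± 0.13, edgeR adjusted p = 0.148). Bmp10, a trabecular growth factor, was listed at 4.88 to 5.46 FPKM against 13.3 to 15.1 FPKM (-1.5 ± 0.15). The call of Jag1, a Notch ligand, at 1.01 ± 0.16, was lost in each of 4 fits that left out atria 1, atria 3, ventricles 2 or ventricles 3, at log2 fold changes of 0.99, 0.99, 0.96 and 0.84.

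Of the 5 signalling lists, that of retinoic acid genes had the highest share of atrial calls, 6 of 17 tested, with 1 higher in the ventricles and a median log2 fold change of 0.98. The median depended on single libraries, at 0.64 without atria 3, 0.45 without ventricles 1 and 0.56 without ventricles 3, and was 0.46 with a term for Y-linked transcripts. Aldh1a2, the enzyme that makes retinoic acid in the embryo, was listed at 43.1, 69.6 and 57 FPKM in atria 1, 2 and 3 and at 14.9, 16.9 and 18.7 FPKM in ventricles 1, 2 and 3 (log2 fold change 1.67 ± 0.16, edgeR adjusted p = 0.000101). Rdh10, which makes its substrate, the retinol importer Stra6, the receptor Rxrg, the retinal reductase Dhrs3 and the binding protein Crabp2 were also higher in the atria, at 1.51 ± 0.27, 2.34 ± 0.39, 1.86 ± 0.36, 1.32 ± 0.34 and 2.40 ± 0.63. Crabp2 was lowest in atria 1, at 4.24 FPKM against 13.7 and 16.6 FPKM, and there it overlapped ventricles 1 at 4.26 FPKM. Cyp26b1, which degrades retinoic acid, was higher in the ventricles, at 0.566 to 1.04 FPKM against 0.163 to 0.248 FPKM (-1.93 ± 0.41, edgeR adjusted p = 0.0119). Aldh1a2 and Rdh10 thus lay on the side opposite to Cyp26b1, the only degrading enzyme called, and the retinal reductase Dhrs3 lay with Aldh1a2. The call of Crabp2 was lost without atria 2, atria 3, ventricles 2 or ventricles 3 (edgeR adjusted p = 0.0984, 0.121, 0.116 and 0.0762), Dhrs3 without any of atria 2, atria 3, ventricles 1 or ventricles 2 (0.0949, 0.114, 0.0872 and 0.0628), and Cyp26b1 without ventricles 1 (0.0648).

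Wnt and Fgf genes were divided, with 6 of 42 tested higher in the atria and 7 higher in the ventricles. Wnt2, a ligand of the posterior second heart field, was listed at 37.1, 41.8 and 29.9 FPKM in the atria and at 2.83, 3.46 and 2.22 FPKM in the ventricles (log2 fold change 3.61 ± 0.17, edgeR adjusted p = 1.34e-06). The receptors Fzd7 and Fzd10 were higher in the atria too (2.06 ± 0.30 and 2.87 ± 0.61). On the ventricular side stood the ligands Fgf9, Wnt4 and Wnt9b (-1.34 ± 0.29, -1.30 ± 0.24 and -1.19 ± 0.26), the Wnt inhibitor Frzb (-1.69 ± 0.25), and Spry4 and Etv4, both induced by Fgf signalling (-1.71 ± 0.14 and -1.33 ± 0.28). Dusp6, another gene induced by Fgf signalling, was listed at 26.7 to 34.9 FPKM in the atria and 24 to 26.6 FPKM in the ventricles and was not called (0.22 ± 0.10). Fgf9 lost its call without ventricles 2 (edgeR adjusted p = 0.068) and Wnt9b without ventricles 1 (edgeR adjusted p = 0.0575). In the Bmp and Tgfb list 2 of 30 tested genes were higher in the atria (Gdf10 and Fst) and 2 in the ventricles (Bmp10 and Inhba). Fst, which binds and blocks activins, and Inhba, which encodes an activin subunit, lay on opposite sides, Fst at 10.3 to 13.2 against 1.16 to 1.29 FPKM (3.25 ± 0.16, edgeR adjusted p = 1.54e-06) and Inhba at 0.479 to 0.793 against 1.43 to 3.61 FPKM (-2.12 ± 0.33, edgeR adjusted p = 0.00198).

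Guidance cues were split by family member. Slit3 was higher in the atria, at 15.9 to 19 FPKM against 4.73 to 6.19 FPKM (log2 fold change 1.65 ± 0.11, edgeR adjusted p = 1.16e-05). Slit2 was higher in the ventricles, at 3.64 to 5.23 FPKM against 8.65 to 10.7 FPKM (-1.16 ± 0.14, edgeR adjusted p = 0.000485). Likewise Sema3d was higher in the atria (1.26 ± 0.12). Sema3c, which guides neural crest cells into the outflow tract, was higher in the ventricles (2.57 to 3.52 against 12 to 16.5 FPKM, -2.33 ± 0.15). Sema3c belonged to the list of outflow tract genes, of which 3 of 10 tested were higher in the ventricles (with Cxcl12 and Rgs5). Rgs5 was listed at 0.461 to 1.04 FPKM in the atria and at 7.99, 3.26 and 1.04 FPKM in ventricles 1, 2 and 3, and its call was lost without atria 1, atria 3 or ventricles 1 (edgeR adjusted p = 0.0598, 0.0834 and 0.067).

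The extracellular matrix differed in composition, with calls in both directions. Of 30 tested collagen genes 5 were higher in the atria, among them the fibrillar chains Col1a1 and Col1a2 (log2 fold changes 1.11 ± 0.08 and 1.08 ± 0.12) and Col6a2 and Col6a3 (1.17 ± 0.11 and 1.38 ± 0.30). The 4 higher in the ventricles were Col2a1 and the 3 chains of collagen IX, which is known from cartilage and is assembled on collagen II fibrils. Col9a3 was listed at 2.72 to 3.77 FPKM in the atria and 11 to 13.2 FPKM in the ventricles (-1.98 ± 0.15, edgeR adjusted p = 2.34e-05). Col9a1, Col9a2 and Col2a1 differed by -1.09 ± 0.15, -1.34 ± 0.16 and -1.02 ± 0.11. Leaving out a single library moved these collagen counts to as few as 3 atrial (without atria 2, atria 3 or ventricles 2) and 2 ventricular genes (without atria 3). Of 41 tested matrix glycoprotein and proteoglycan genes 6 were higher in the atria and 9 in the ventricles. Eln (elastin) was listed at 3.98, 4.45 and 6.59 FPKM in the atria and at 39.1, 33.9 and 17.9 FPKM in the ventricles (-2.66 ± 0.27, edgeR adjusted p = 0.000143).

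Of 15 tested cushion and valve genes, 3 were higher in the ventricles (Postn, Vcan, Penk) and 12 were not called, with 5 values positive and a median log2 fold change of -0.40. Postn (periostin), listed at 13.2 to 16.4 FPKM in the atria and 47.9 to 60 FPKM in the ventricles, and Vcan (versican), at 13 to 16 and 36.1 to 41.8 FPKM, differed by -1.94 ± 0.11 and -1.51 ± 0.09 (edgeR adjusted p = 2.85e-06 and 3.06e-06). Has2, a matrix gene of the glycoprotein and proteoglycan list that makes hyaluronan, differed by -1.40 ± 0.33. Penk, an opioid peptide precursor, was listed at 12.1, 5.25 and 2.23 FPKM in ventricles 1, 2 and 3 and at most 0.387 FPKM in the atria, the same order over ventricular libraries as Rgs5. Has2 lost its call without atria 2, ventricles 1 or ventricles 2 (edgeR adjusted p = 0.0748, 0.071 and 0.0622). Atrial matrix genes included the laminin chains Lama2 and Lama1, the proteoglycan Dcn and Spon1, which was listed at 70.5 to 83.4 FPKM against 32 to 33.9 FPKM (1.13 ± 0.07, edgeR adjusted p = 3.85e-06). Dcn fell under the fold limit without atria 3 or ventricles 1, at 0.84 and 0.98, and Lama1 lost its call without atria 2 or ventricles 1 (edgeR adjusted p = 0.0559 and 0.0506).

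Glycolysis genes were mostly higher in the ventricles by small amounts. Of 29 tested glycolysis genes, 26 had a negative log2 fold change and 21 an adjusted p below 0.05 in that direction, the median was -0.47, and 4 passed the fold limit (Slc2a3, Slc16a3, Ldha, Hk2). Ldha, which reduces pyruvate to lactate, was listed at 1234, 899 and 780 FPKM in atria 1, 2 and 3 and at 2018, 1998 and 1923 FPKM in ventricles 1, 2 and 3 (-1.09 ± 0.14, edgeR adjusted p = 0.00065). Slc16a3, which exports lactate, was listed at 65.4, 51.8 and 44.2 FPKM and 106, 118 and 112 FPKM (-1.13 ± 0.13, edgeR adjusted p = 0.00033). Atria 1 was the closest to the ventricles for both, and the reason was not tested. Of 43 tested genes of oxidative phosphorylation and energy transfer 39 had a negative log2 fold change with a median of -0.27, and 5 were called higher in the ventricles, or 3 without atria 2, atria 3, ventricles 2 or ventricles 3. The Z-disc list (-0.29), the matrix glycoprotein and proteoglycan list (-0.25) and the list of genes of cardiomyocytes of both chambers (-0.20) had medians of similar size. Mb (myoglobin) led them, at 14.3, 12.3 and 12.5 FPKM in the atria and 83.8, 85.5 and 92.9 FPKM in the ventricles (-2.82 ± 0.11, edgeR adjusted p = 3.54e-07). Of 28 tested fatty acid oxidation genes 17 had a negative and 11 a positive log2 fold change, and 1 was called, Fabp3, the muscle fatty acid binding protein, at 197 to 237 FPKM against 380 to 422 FPKM (-1.02 ± 0.09), and it fell to -0.97, under the limit, without atria 2, atria 3 or ventricles 3. These lists move with how the libraries are scaled, since scaling by library totals alone shifts the median of all genes from 0.014 to 0.112 and then leaves Fabp3 at -0.92.

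The hypoxia response list held 7 of 20 tested genes higher in the ventricles and 1 higher in the atria, with a median log2 fold change of -0.63, and it shares Hk2, Ldha, Slc2a1 and Pdk1 with the glycolysis list. Bnip3, which directs mitochondrial clearance under low oxygen, was listed at 93.8, 57.9 and 48.7 FPKM in the atria and at 169, 176 and 184 FPKM in the ventricles (-1.47 ± 0.20, edgeR adjusted p = 0.00102). P4ha2, a collagen prolyl hydroxylase, was listed at 7.86 to 12.3 and 19.7 to 22.7 FPKM (-1.11 ± 0.16, edgeR adjusted p = 0.00107). Adm (adrenomedullin), a vasodilator peptide on the same list, ran against them at 25, 23.3 and 21.1 FPKM in the atria and 3.96, 4.36 and 6.75 FPKM in the ventricles (2.13 ± 0.21, edgeR adjusted p = 0.000143). Several calls lay close to the fold limit: without atria 3 the hypoxia list kept 2 and the glycolysis list 1 of their ventricular calls, with Ldha at -0.96 and P4ha2 at -0.97. With library totals alone the hypoxia list kept 4.

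The 250 bases upstream of the start of 4 of these genes are shown because they moved together and hold the core of the hypoxia response element, ACGTG, here in capitals on either strand (CACGT is its reverse complement). They were taken from RefSeq on GRCm38.p6 and read 5′ to 3′ on the strand of the gene, at chr7:46845554-46845803 (plus strand) for Ldha, chr7:138909507-138909756 (minus strand) for Bnip3, chr11:54100674-54100923 (plus strand) for P4ha2 and chr11:120948817-120949066 (plus strand) for Slc16a3.
Ldha: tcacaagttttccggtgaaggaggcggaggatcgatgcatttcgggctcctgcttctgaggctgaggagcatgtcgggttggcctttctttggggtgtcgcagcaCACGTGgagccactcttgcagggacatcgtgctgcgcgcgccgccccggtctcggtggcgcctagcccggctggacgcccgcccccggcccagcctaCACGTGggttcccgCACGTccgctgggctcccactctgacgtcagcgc
Bnip3: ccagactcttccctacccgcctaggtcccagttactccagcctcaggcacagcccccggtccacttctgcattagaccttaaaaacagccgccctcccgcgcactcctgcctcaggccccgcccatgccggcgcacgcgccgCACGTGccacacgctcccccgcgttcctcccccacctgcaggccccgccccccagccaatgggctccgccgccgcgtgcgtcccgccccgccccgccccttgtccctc
P4ha2: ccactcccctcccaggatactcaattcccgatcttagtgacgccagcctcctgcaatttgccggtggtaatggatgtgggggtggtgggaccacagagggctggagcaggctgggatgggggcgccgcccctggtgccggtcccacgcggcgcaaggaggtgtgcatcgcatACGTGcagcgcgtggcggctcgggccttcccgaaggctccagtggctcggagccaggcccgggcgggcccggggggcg
Slc16a3: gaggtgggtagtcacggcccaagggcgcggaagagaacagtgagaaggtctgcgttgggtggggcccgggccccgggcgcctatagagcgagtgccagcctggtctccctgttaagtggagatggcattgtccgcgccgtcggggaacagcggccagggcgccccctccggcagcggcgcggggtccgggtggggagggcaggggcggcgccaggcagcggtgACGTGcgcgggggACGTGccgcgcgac
The Ldha window holds CACGTG at 2 places, where matches on both strands overlap, and a further CACGT. RefSeq lists 2 promoters for Ldha, and the window shown was picked for its number of matches. Slc16a3 is on the glycolysis list and not on the hypoxia list. Of the 27 promoters that RefSeq lists for the 19 hypoxia genes matched by symbol, 16 (59.3%) held the letters, against 14 of 38 (36.8%) for glycolysis genes, 11 of 37 (29.7%) for cell cycle genes and 5444 of 32851 (16.6%) of all promoters. The hypoxia list was chosen as genes of that response, so its share can follow from the choice and does not compare the chambers. Over all genes called higher in the ventricles, 22.1% of the promoters held the letters, against 21.1% for tested genes and 13.9% for genes called higher in the atria. The 4 genes were picked after their values and their sequences had been seen, and a match of 5 letters describes the window and not a bound site.

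Markers of non-muscle cells differed between the dissected pieces. In the epicardium and mesothelium list 4 of 15 genes were higher in the atria, with a median log2 fold change of 0.76 and a summed level of 465.2 to 474.4 FPKM in the atria and 266.5 to 291.1 FPKM in the ventricles. Upk3b, a marker of mesothelium, was listed at 137, 115 and 136 FPKM against 74.2, 74.6 and 68.9 FPKM (0.77 ± 0.08, edgeR adjusted p = 0.000256). Tcf21, of epicardium and fibroblast progenitors, was listed at 57.1 to 75.8 FPKM against 31.6 to 34.3 FPKM (0.94 ± 0.12, edgeR adjusted p = 0.000548). Of 11 tested fibroblast and mesenchyme genes 4 were higher in the atria. Aldh1a2 and Sema3d are also epicardial genes, so the retinoic acid and guidance results above contain them. The part played by the amount of epicardium in each piece was not tested.

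The endothelial list gave few calls, with 1 of 18 genes called (Cldn5, of tight junctions, log2 fold change 1.5 ± 0.27), a median of -0.16 and summed levels of 331.4 to 367.7 FPKM in the atria and 369.7 to 389.2 FPKM in the ventricles. Among venous markers Aplnr, the apelin receptor of veins and sinus venosus endothelium, was listed at 11.7, 20.8 and 15.4 FPKM in the atria and 1.39, 2.02 and 1.14 FPKM in the ventricles (3.32 ± 0.24, edgeR adjusted p = 1.63e-05). Smooth muscle genes moved in both directions. Myh11, the smooth muscle heavy chain, was listed at 1.96, 3.83 and 2.31 FPKM in the atria and at 0.198, 0 and 0 FPKM in the ventricles. Actg2, a smooth muscle actin, differed by 2.21 ± 0.27. Cspg4, a proteoglycan of pericytes, was listed at 1.45 to 2.01 FPKM in the atria and 12.1 to 16.8 FPKM in the ventricles (-3.03 ± 0.16, edgeR adjusted p = 1.92e-06).

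Of 14 tested macrophage and leukocyte genes, 6 were higher in the atria (Cx3cr1, Cd68, C1qa, C1qb, C1qc, Csf1r), 2 lysozyme genes were higher in the ventricles and 6 were not called. DESeq2's test called 10 higher in the atria, and the median log2 fold change was 1.61. C1qb, a complement subunit made by tissue macrophages, was listed at 12.1, 21.9 and 19 FPKM in the atria and 5.72, 5.57 and 5.61 FPKM in the ventricles (1.58 ± 0.21, edgeR adjusted p = 0.000934). Csf1r, the receptor these cells need, was listed at 3.3, 8.16 and 4.83 FPKM against 1.49 to 1.88 FPKM. Lyz2 was listed at 3.69, 9.39 and 7.2 FPKM in the atria and 37.8, 39.1 and 47.9 FPKM in the ventricles (-2.70 ± 0.27, edgeR adjusted p = 0.000153). Lyz1 was listed at most at 0.156 FPKM against 5.12 to 7.16 FPKM. Lysozyme thus ran against every other called macrophage gene, and its 2 near-identical copies can share reads. C1qa and Cd68 lost their calls in 4 and 6 of the fits without 1 library, at adjusted p up to 0.115 and 0.154 by edgeR.

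Of 13 skeletal muscle genes 5 passed the low-count filter, of which 3 were higher in the atria (Myog, Tnnt3, Actn3) and 1 in the ventricles (Ckm). Ckm, the muscle creatine kinase, was listed at 2.27 to 5.39 FPKM in the atria and 7.32 to 11.1 FPKM in the ventricles (log2 fold change -1.19 ± 0.32, edgeR adjusted p = 0.0347), and it lost its call without atria 2, atria 3, ventricles 2 or ventricles 3. Actn3, a fast-fibre actinin, differed by 1.33 ± 0.19. Without atria 1, 6 genes of the list were called higher in the atria. The list summed to 601.4, 512.8 and 442.4 FPKM in atria 1, 2 and 3 and to 385.5 to 468.1 FPKM in the ventricles. Its low-level factors were ordered differently. Myog, a factor of skeletal myoblasts, was listed at 0.649, 1.3 and 7.95 FPKM in atria 1, 2 and 3 and at most 0.126 FPKM in the ventricles, and Myod1 had 4, 51 and 206 fragments in the atria and 0 in each ventricular library. Pax3 had 0, 16 and 102 fragments in the atria and Myf5 had 0, 8 and 26, again with 0 in each ventricular library. All 4 factors were highest in atria 3 and lowest in atria 1. In atria 1, 2 and 3, Myl1 was listed at 874, 690 and 832 FPKM and Casq1 at 323, 274 and 299 FPKM. Tnnt3 and Atp2a1 did not follow the order of the factors in full either. Atp2a1 made up 2.01%, 2.9% and 2.88% of its sum with Atp2a2 in these libraries, lowest in atria 1. The part of skeletal muscle cells in these values was not tested. Without atria 3 the call of Myog was lost (edgeR adjusted p = 0.0746). The list of lung, foregut and splanchnic mesenchyme genes summed to 34.2 to 49.8 FPKM in the atria and 4.37 to 9.07 FPKM in the ventricles, with 2 of 8 tested genes higher in the atria, Foxf1 and Wnt2. Most of the sum in each atrial library was Wnt2, also a gene of lung mesenchyme, whose values are given above. The part of such mesenchyme in the atrial values was not tested. Of the epithelial markers on that list, Sftpc had 0 fragments in all 6 libraries and Nkx2-1 at most 1. The values of its other epithelial markers are not reported here. Alb, the main liver transcript, had at most 5 fragments.

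**Figure D4:**
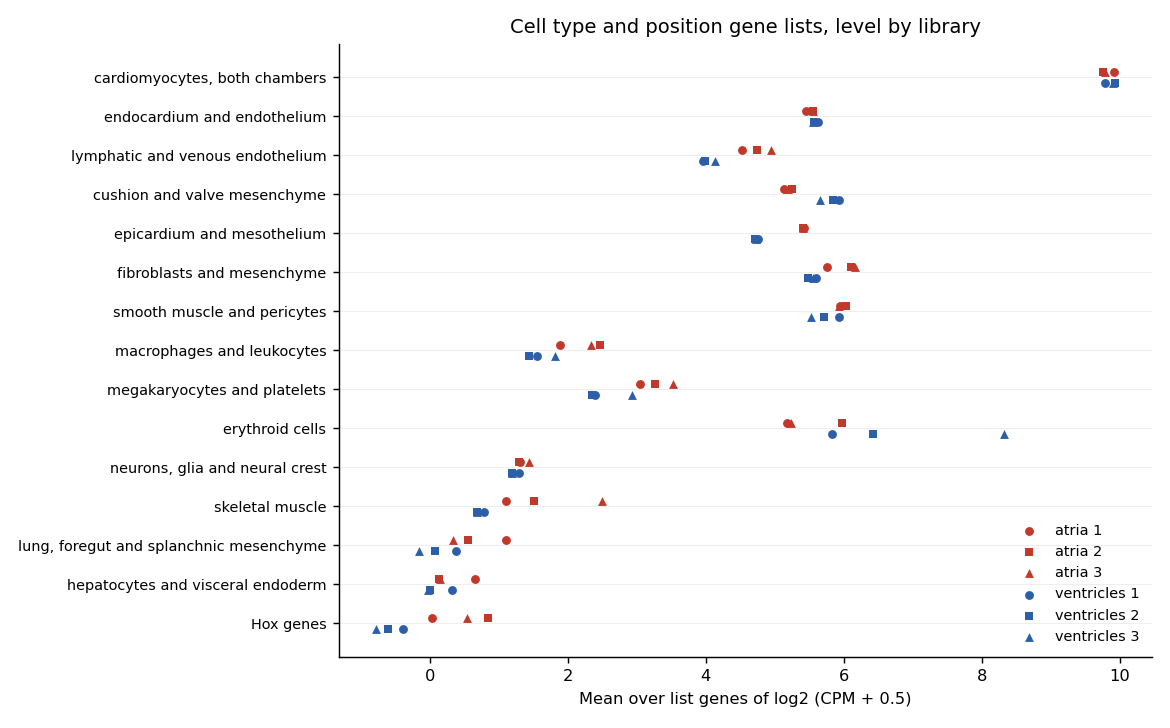
Mean over the genes of each list of log2 (CPM + 0.5), for cell type and position lists, with red symbols for atria and blue for ventricles and 1 symbol shape per replicate number. Ventricles 3 lies apart for erythroid genes, atria 3 for skeletal muscle genes and atria 1 is the lowest atrial library for Hox and macrophage genes.

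Blood transcripts were set apart by 1 library. Hbb-y, an embryonic beta globin, was listed at 3616, 7090 and 3820 FPKM in atria 1, 2 and 3 and at 5700, 9191 and 36779 FPKM in ventricles 1, 2 and 3, so the chambers overlapped and the third ventricular library held several times the level of any other. All 13 tested erythroid genes had a negative log2 fold change with a median of -1.94, and 5 were called higher in the ventricles. Without ventricles 3 the median was -0.72, edgeR called 0 of them and 11 had an unadjusted p below 0.05. The number called was unstable, at 0 also without atria 1 or atria 3, 1 without atria 2, 3 without ventricles 2 and 12 without ventricles 1. It was 2 by DESeq2's test, 1 by limma-trend, with the replicate block or with the Y-linked term, 3 without hemoglobin genes, and 11 with a minimum count of 50, no filter or scaling to cardiomyocyte genes. The counts over all genes without ventricles 3 were 402 and 235. Megakaryocyte and platelet genes had a positive log2 fold change in 9 of 9 tested and 0 calls by edgeR, at a median of 0.78. An unadjusted p below 0.05 was reached by 6 of them, DESeq2 called 1, limma-trend called 2 and edgeR called 4 without ventricles 3.

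Cell cycle genes showed only small differences. Of 41 tested, 0 were called in either direction by edgeR, DESeq2 or limma-trend (1 without atria 1 or ventricles 1), and the median log2 fold change was -0.12. An unadjusted p below 0.05 was reached by 12. Under the fold limit 4 reached an adjusted p below 0.05, all toward the ventricles. Over all 14536 genes 1041 reached that adjusted p in the same direction at any fold change. Ccnd3, a D-type cyclin, was listed at 240 to 247 FPKM in the atria and 336 to 359 FPKM in the ventricles (-0.58 ± 0.06, edgeR adjusted p = 0.000255), and Cdkn1c, a cell cycle inhibitor, at 603 to 662 and 775 to 956 FPKM (-0.54 ± 0.07, edgeR adjusted p = 0.00072). Immediate early genes, which respond within minutes to handling of tissue, were lower in the atria, with 3 of 13 called (Nr4a1, Egr1, Junb) and a median of -0.47. Egr1 was listed at 2.75 to 3.76 FPKM in the atria and 7.65 to 9.05 FPKM in the ventricles.

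**Figure D5:**
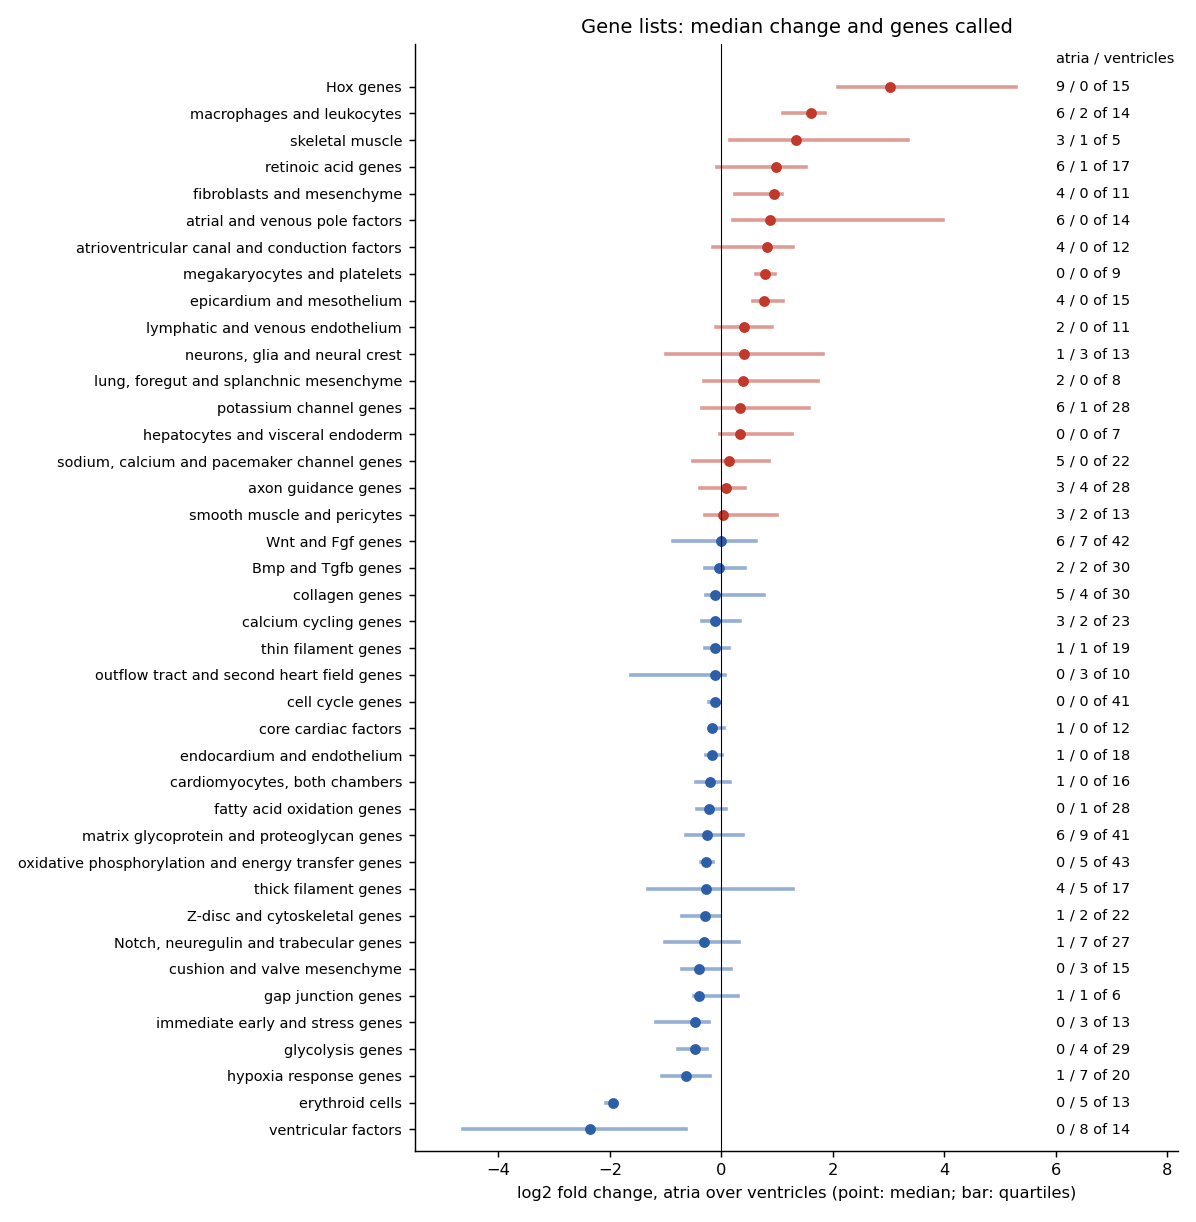
Median log2 fold change, atria over ventricles (point), with the quartiles over tested genes (bar), for the 40 gene lists with at least 5 genes tested, and on the right the genes called higher in atria and in ventricles out of those tested. Hox, macrophage, skeletal muscle, retinoic acid, fibroblast, venous pole, atrioventricular canal, platelet and epicardium lists lie to the right. Ventricular factor, erythroid, hypoxia, glycolysis and immediate early lists lie to the left, and the other lists lie nearer 0.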

How the data were processed

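RNA-seq was run on 3 atrial and 3 ventricular libraries of E11.5 mouse hearts. The labels name an Illumina TruSeq RNA kit and total RNA, and use of strand in counting was not given in the sources used here. Per the study's methods and the submitters' processing notes, the authors mapped the reads to mm10 with STAR. The authors deposited fragment counts per gene, which are expected counts since 22.9% of the values were not whole, and FPKM, normalised by the authors for exon length and mapped fragments. The deposited table also holds gene coordinates and annotation terms, which served for names, positions and gene classes.

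Counts were rounded to whole numbers. Genes passing edgeR's filterByExpr (minimum count 10) were tested with edgeR 4.0.16 (quasi-likelihood test, TMM, Benjamini-Hochberg adjustment), and a gene was called at an adjusted p below 0.05 and a log2 fold change beyond 1 or -1. FPKM served for levels per library only. Genes whose low group had at most 3 fragments in every library were given as at least a fold, against a floor of 3 fragments per library, and such intervals cover counting error only. At this depth 3 fragments equal 0.0982 to 0.1156 CPM (counts scaled to library size). The common biological coefficient of variation was 0.211.

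The text names the 12 largest changes each way among genes whose groups do not overlap and whose higher group averages 5 CPM or more (symbols of the Gm, Rik or locus number kind left out), up to 6 called members each way and the 4 highest members of each of 41 gene lists, and cell type markers at or near 0. The lists hold 777 genes, 775 of which were in the table. Some genes that meet this rule are not reported here. Hey2 and the genes shown with promoters were named after their values were seen, and the gene members and lists were chosen with earlier results of these data known. The labels number 3 replicates per chamber, and whether these came from separate embryos or pools was not given in the sources used here. Promoter windows came from RefSeq (GRCm38.p6), cut to the 250 bases before each start. Alternatives were DESeq2 1.42.0, limma-trend (limma 3.58.1), other scalings and filters, a replicate block, a term for Y-linked transcripts (chosen after seeing the data) and leaving out each library. Reads of overlapping genes, of antisense genes and of near-identical copies such as Lyz1 and Lyz2 or Hba-a1 and Hba-a2 could not be told apart.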

Additional observations from a re-analysis of the deposited data

How the results depend on the processing

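Both counts of calls, 425 atrial and 287 ventricular genes, stayed within 1.5 times under every alternative fit, and they changed by more only with the fold limit: without it 941 and 1041 genes were called, and with a limit of 2 on the log2 scale 187 and 102. DESeq2's test gave 578 and 373, limma-trend 472 and 321, library totals alone 518 and 242, scaling to cardiomyocyte genes 393 and 328, and leaving out 1 library 300 to 466 and 227 to 299. With the replicate number as a block the counts were 362 and 259, and deviations of same-numbered libraries correlated at -0.0284, -0.00602 and 0.00856, so the numbers were not taken to pair the samples, although libraries of the same number carried the same sex-linked transcripts. Of 152 named genes, 118 kept their direction and their side of the threshold in all fits. The only reversals were in Gata4, whose value near 0 became 0.09 with library totals alone, 0.00 with a minimum count of 50 and -0.06 to 0.04 over the fits that left out 1 library. The block ended the calls of Cd68, Crabp2, Nefm and Stmn2, and DESeq2's test that of Myh11. For these changes the cause was not tested. With 3 libraries a group, genes near the fold limit or under about 1 FPKM are the least certain.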
